A study of Mus musculus with 9 samples.

Results

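The Slc22 genes encode organic ion transporters, membrane proteins that carry organic anions, organic cations, urate and carnitine-like molecules across the plasma membrane. Here, 9 of them were followed in the proximal tubule: Slc22a2, Slc22a4, Slc22a6, Slc22a7, Slc22a8, Slc22a12, Slc22a13, Slc22a18 and Slc22a30. They were chosen by symbol as organic anion, cation and urate transporters of the tubule, out of 24421 genes in the table, and all 9 were among the 15583 genes that passed the filter on low values. Another 16 Slc22 genes in the table served as a comparison. The study sequenced poly(A) RNA of tdTomato-positive cells sorted from minced kidney cortex of 3 mice in each of 3 groups. It asked how the proximal tubule responds to diabetes and to dapagliflozin, an inhibitor of the glucose transporter SGLT2.

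All 9 mice carried SLC34a1GCE, a tamoxifen-activated Cre in the locus of a phosphate transporter of the proximal tubule, and the R26tdTomato reporter, and all received 5 injections of tamoxifen at 8 weeks of age. The sorted cells are thus those in which this Cre was active. The labels give the strain as C57BL/6 and the tissue as kidney. *db/m* mice, heterozygous for a leptin receptor mutation, were the non-diabetic controls. *db/db* mice, homozygous for it, are obese and hyperglycemic and received vehicle. *db/db*-dapa mice, here also called treated mice, are *db/db* mice given dapagliflozin at 1.5 mg/kg/day in drinking water for 8 weeks.

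In the proximal tubule, transporters of this family on the blood side take up drugs, uremic toxins and metabolites that the cell then passes to the urine. OAT1 (Slc22a6) and OAT3 (Slc22a8) do so for organic anions in exchange for intracellular dicarboxylate, and OCT2 (Slc22a2) for organic cations. On the urinary side, URAT1 (Slc22a12) takes urate back from the filtrate. Several members differ between the straight and the convoluted parts of the tubule, and between the sexes in rodents. The transcripts of 4 Y-linked genes were detected in 9 of 9 mice and Xist had at most 3.5 counts in any mouse, so no difference in sex was seen between the groups.

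The libraries held 4817670 to 6571539 counts in *db/m*, 2733314 to 7635630 in *db/db* and 6981183 to 9033062 in treated mice. Levels are given as CPM, counts divided by the scaled library size, so that mice of different depth can be compared, and a count of 3 stood for 0.339 CPM in the deepest and 1.02 in the shallowest library (*db/db* replicate 1). All 10 proximal tubule markers were detected in every mouse. They summed to 17163 to 17422 CPM in *db/m*, 18388 to 22813 in *db/db* and 19630 to 23683 in treated mice, so *db/m* mice lay below all others. The 3 thick ascending limb markers summed to 752 to 1513 CPM in *db/m*, 308 to 983 in *db/db* and 384 to 493 in treated mice, the last below all *db/m* mice. Over all mice, the summed levels were 89.0 to 475 CPM for 5 immune markers and 18.0 to 255 for 5 podocyte markers. Red blood cell markers (4 genes) were at 63.8 to 941 CPM in *db/db* mice, the highest in replicate 2, and at 19.5 to 277 in the other mice. *db/db* mice also differed among themselves in markers of the S3 segment, the straight end of the proximal tubule. The 7 S3 markers summed to 762 and 1189 CPM in *db/db* replicates 1 and 2 but to 3098 in replicate 3, against 2179 to 2474 in *db/m* and 2103 to 3075 in treated mice. The 6 markers of the S1 segment, its beginning, summed to 2739 to 3838 CPM in *db/m*, 3951 to 6361 in *db/db* and 4791 to 5634 in treated mice. The cells came from minced cortex, and the share of each segment taken with it is not given. Fewer cells of a segment and less RNA per cell cannot be told apart in these libraries.

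Calls rest on the quasi-likelihood (QL) test of edgeR, fitted to all 9 mice with Benjamini-Hochberg adjustment over the 15583 genes. They required an adjusted p under 0.1 and a log2 fold change beyond 1 in either direction. In *db/db* against *db/m* mice, 1 of the 9 transporter genes, Slc22a7, was called, and it was lower. Over all genes, 1.24% were called, 0.545% higher and 0.699% lower. Slc22a7 was again the member called in treated against *db/m* mice, where 1.05% of all genes were called and 0.475% were called lower. These comparisons share the *db/m* mice. Of the 9 members, 0 were called in treated against *db/db* mice, as were 0% of all genes, whereas an unadjusted p under 0.05 was found for 1 member and for 5.19% of all genes. The study itself reported 13 genes in this comparison, from edgeR at the same thresholds after a filter on FPKM. Why the fit used here called 0 was not tested. DESeq2 called 13 genes in this comparison, and 0 of them were members. Whether these are the genes that the study reported was not checked. An exact permutation test over mice (two-sided) was run for each member as well, whose smallest possible p is 0.1 with 3 mice a group.

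The levels of *db/db* and *db/m* mice did not overlap for 6 members. Slc22a8 was higher and Slc22a2, Slc22a7, Slc22a12, Slc22a18 and Slc22a30 were lower in each *db/db* mouse than in each *db/m* mouse. Over all genes the levels did not overlap for 16.4%, 8.28% higher and 8.13% lower. Treated and *db/m* mice did not overlap for 5 members, with Slc22a6 and Slc22a8 higher and Slc22a7, Slc22a18 and Slc22a30 lower, against 28.1% of all genes, 14.4% higher and 13.7% lower. Between treated and *db/db* mice this held for Slc22a12 alone among the members, which was higher, against 10.2% of all genes, 4.9% of them higher in the treated mice. For the members, median log2 fold changes were -0.34 in *db/db* against *db/m*, -0.21 in treated against *db/m* and 0.62 in treated against *db/db* mice, where all genes had medians of 0.020, -0.022 and -0.0094.

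**Figure D1:**
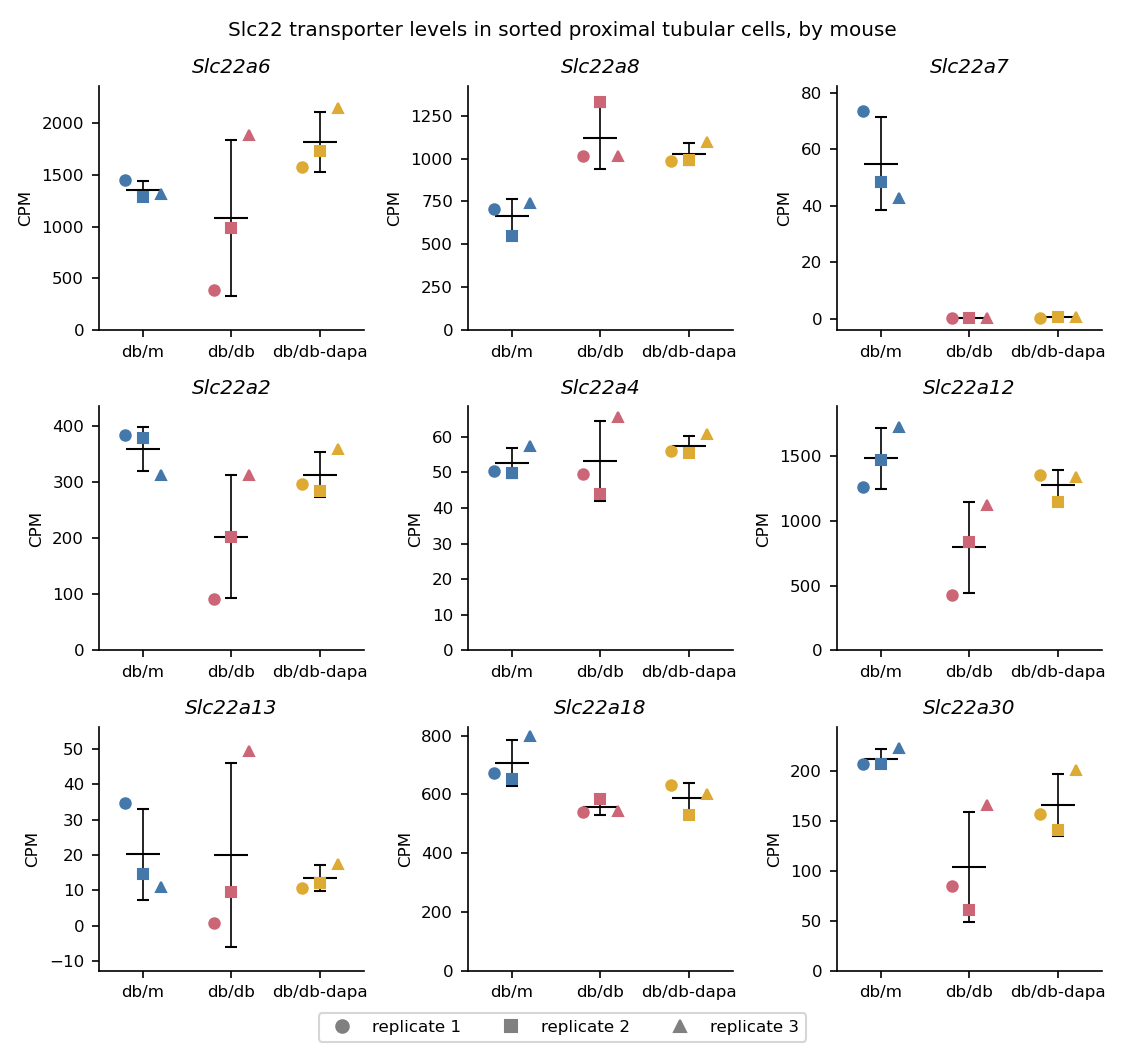
Levels of the 9 Slc22 genes in CPM (vertical axis, linear, its scale set for each gene) in *db/m*, *db/db* and treated mice, the last shown under their label *db/db*-dapa. Symbols are single mice, lines are means and bars are SD (n = 3 each). Slc22a7 lies at 42.9 CPM or above in *db/m* mice and at or below 0.525 in the other 6 mice, and *db/db* mice spread from 384 to 1882 CPM for Slc22a6.

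Slc22a7 encodes OAT2, an organic anion transporter that also carries nucleotides and creatinine and that lies, in rodent kidney, in the straight part of the proximal tubule. The gene is on chromosome 17 from 46432183 to 46438457 (GRCm38, minus strand). It was at 73.5, 48.3 and 42.9 CPM in *db/m* mice. In *db/db* mice it was at 0.340, 0.200 and 0.253 CPM, which rest on 1, 1 and 2 counts. In treated mice it was at 0.284, 0.525 and 0.452 CPM, from 2, 4 and 4 counts. The transcript was thus close to the limit of detection in all 6 *db/db* mice with or without dapagliflozin, and far above it in all 3 *db/m* mice. Pooled over mice, 937 counts in *db/m* stood against 4 in *db/db* mice, a ratio of 224 with a 95% exact interval of 87.2 to 824. Against the 10 counts of treated mice the ratio was 133, with an interval of 71.9 to 278. These intervals cover counting error only. The fitted log2 fold changes were -7.66 (standard error 0.39) and -6.95 (standard error 0.34), with adjusted p = 5.69e-06 and 3.77e-06 (edgeR QL test). Treated and *db/db* mice differed by a ratio of 1.69 with an interval of 0.487 to 7.37, and at this depth a difference between them was not detectable.

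Beside Slc22a7, the S3 marker Slc7a13, an amino acid transporter, was at 310 to 484 CPM in *db/m*, 7.40 to 100 in *db/db* and 35.1 to 125 in treated mice. The summed S3 markers of *db/db* replicate 3 and of all treated mice were at 2103 CPM or above, where Slc22a7 stood at 0.525 CPM or below. The 7 markers diverged among themselves: 4 had log2 fold changes above 0 and 3 below in *db/db* against *db/m* mice, from 0.38 for Slc5a1 to -3.27 for Slc7a13, and the same numbers lay above and below 0 in treated against *db/m* mice, with 0.94 for Slc5a1 and -2.26 for Slc7a13. None of these differences was called. The part of S3 cell content in the level of Slc22a7 was not tested. Of the 7 markers, Cyp7b1 was at 0 in *db/db*-dapa replicate 2 and the others were detected in all mice. Among genes outside the list, those whose pattern over the 9 mice was most like that of Slc22a7, by Pearson's r of log2(CPM + 1), were Gm6300 (r = 0.998), Orc4 (r = 0.984) and Hsd11b1 (r = 0.981). Gm6300, a predicted gene, was at 30.1 CPM in *db/m* and listed at 0 in the other mice. Orc4, a subunit of the origin recognition complex, was at 42.4, 30.2 and 31.7 CPM in *db/m*, *db/db* and treated mice. Hsd11b1, which regenerates active glucocorticoid, was at 41.8, 4.01 and 4.55 CPM. These correlations describe groups that stand apart and carry no test.

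Slc22a6 and Slc22a8, which encode OAT1 and OAT3, are neighbors on chromosome 19 on the plus strand, from 8618039 to 8628299 and from 8591254 to 8611835 (GRCm38), with 6.2 kb between them. OAT1 and OAT3 carry many of the same drugs and toxins. Promoters were available from RefSeq (GRCm38.p6) for 8 of the 9 members and are given here for this neighboring pair, because the genes lie side by side and yet differed in level from mouse to mouse. The stretch of 120 bases before each start is printed in the direction of transcription, chr19:8593062-8593181 for Slc22a8 and chr19:8617876-8617995 for Slc22a6, both on the plus strand. Capitals mark GTTAAT, 6 letters that both stretches hold once on this strand.
Slc22a8: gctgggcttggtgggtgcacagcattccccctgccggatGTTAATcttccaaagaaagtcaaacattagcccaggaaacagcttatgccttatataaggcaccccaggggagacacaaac
Slc22a6: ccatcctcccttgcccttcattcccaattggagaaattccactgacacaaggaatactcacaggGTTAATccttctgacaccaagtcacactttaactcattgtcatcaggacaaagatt

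GTTAAT begins 81 bases before the start of Slc22a8 and 56 before that of Slc22a6, and the letters occur on either strand in 7.1% of 32851 RefSeq promoters, each taken from 250 bases before to 50 after the start. For Slc22a6 the first bases after the RefSeq start were not found in GENCODE transcripts, and GENCODE places its start further downstream, so the distance holds for the RefSeq start alone. The Slc22a6 stretch lies between the GENCODE spans of Slc22a8 and Slc22a6, whereas the Slc22a8 stretch lies inside the GENCODE span of Slc22a8. Aligned over the whole window, the promoters of Slc22a6 and Slc22a8 share 48.3% of bases. A match of letters is a description and not a binding site.

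The OAT3 gene was higher in both groups of *db/db* mice. Slc22a8 was at 704, 549 and 742 CPM in *db/m*, 1018, 1331 and 1013 in *db/db* and 985, 992 and 1100 in treated mice. Each mouse with the *db/db* genotype lay above each *db/m* mouse. The log2 fold change was 0.75 (standard error 0.19) in *db/db* and 0.63 (standard error 0.19) in treated mice, but neither passed the threshold (adjusted p = 0.103 and 0.167, edgeR QL test). Treated and *db/db* mice differed by -0.13 on the log2 scale (standard error 0.19), within the spread of the mice. Slc22a8, at 1018, 1331 and 1013 CPM in *db/db* replicates 1, 2 and 3, followed the order of neither segment's summed markers. The S3 sums were 762, 1189 and 3098 CPM and the S1 sums 6361, 4309 and 3951 in these mice. The summed S1 markers were higher in each *db/db* and treated mouse than in each *db/m* mouse. The part of either segment in the level of Slc22a8 was not tested.

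The OAT1 gene showed the widest spread among *db/db* mice of the members above 50 CPM. Slc22a6 was at 1453, 1282 and 1311 CPM in *db/m* mice, at 384, 986 and 1882 in *db/db* mice and at 1576, 1735 and 2142 in treated mice. The coefficient of variation was 6.82% in *db/m*, 69.5% in *db/db* and 16.1% in treated mice. *db/db* replicate 1 lay below every other mouse and *db/db* replicate 3 above every *db/m* mouse. The log2 fold changes of -0.31 (standard error 0.41) in *db/db* against *db/m* and 0.74 (standard error 0.41) in treated against *db/db* mice did not pass the threshold (adjusted p = 0.774 and 0.854, edgeR QL test). Without *db/db* replicate 1 the first became 0.089, and without *db/db* replicate 3 it became -0.98. Treated mice were above *db/m* mice in 3 of 3 mice, by 0.43 on the log2 scale (standard error 0.41, adjusted p = 0.577, edgeR QL test). The ratio of Slc22a6 to Slc22a8 counts within a mouse, which does not depend on the scaling of libraries, was 1.77 to 2.33 in *db/m*, 0.377 to 1.86 in *db/db* and 1.60 to 1.95 in treated mice.

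Slc22a2 encodes OCT2, the blood-side transporter for organic cations such as creatinine and metformin, on chromosome 17 from 12584132 to 12628488 (plus strand). It was at 383, 379 and 313.1 CPM in *db/m* mice, at 92.4, 203 and 312.9 in *db/db* mice and at 296, 285 and 359 in treated mice. *db/db* replicates 1 and 2 were below all other mice, while replicate 3 nearly reached the lowest *db/m* mouse. The log2 fold change was -0.82 (standard error 0.34) in *db/db* against *db/m* and 0.62 (standard error 0.33) in treated against *db/db* mice, with adjusted p = 0.311 and 0.854 (edgeR QL test). Neither passed the threshold. Slc47a1, which encodes MATE1, the exchanger that passes cations from OCT2 to the urine, was at 788, 798 and 803 CPM in *db/m*, *db/db* and treated mice, with log2 fold changes of 0.019, 0.028 and 0.0093 in the 3 comparisons (standard error 0.16 each).

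Slc22a4 encodes OCTN1, a carrier of ergothioneine, on chromosome 11 from 53983123 to 54028090 (minus strand). It was the steadiest of the 9 genes between groups, at 52.6 ± 4.27 CPM in *db/m*, 53.1 ± 11.2 in *db/db* and 57.4 ± 2.87 in treated mice (SD, n = 3 each). Single mice ranged from 49.7 to 57.5, 44.0 to 65.7 and 55.5 to 60.7 CPM, and all groups overlapped. The log2 fold changes were between 0.020 and 0.13, each with a standard error of 0.18. The sign of the value in *db/db* against *db/m* mice changed with the tool and with the mouse left out. Slc22a5, the carnitine transporter OCTN2 further along the same chromosome, was at 525, 563 and 524 CPM, and its log2 fold changes lay between -0.10 and 0.10.

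Urate is taken back from the tubular fluid by URAT1, encoded by Slc22a12 on chromosome 19 from 6535845 to 6543032 (minus strand). The whole gene, 7188 bases, lies within Nrxn2 on the opposite strand, and whether the counting used strand is not given in the sources used here. Slc22a12 was the member with the highest level per kilobase of exon in all 3 groups, at 656 ± 104 CPM per kb in *db/m*, 351 ± 154 in *db/db* and 566 ± 51.1 in treated mice (SD, n = 3 each). In *db/db* mice Slc22a18, at 328 CPM per kb, lay within this spread. Single *db/m* mice were at 1258, 1468 and 1726 CPM. *db/db* mice were at 427, 838 and 1119 CPM and treated mice at 1354, 1147 and 1340. All *db/db* mice were thus below all mice of both other groups. The log2 fold change was -0.90 (standard error 0.29) in *db/db* against *db/m* and 0.69 (standard error 0.29) in treated against *db/db* mice. The unadjusted p was 0.0103 and 0.0379 and the adjusted p 0.214 and 0.854 (edgeR QL test), while exact permutation gave p = 0.1 in each case, the smallest it allows. Treated and *db/m* mice overlapped and differed by -0.21 on the log2 scale (standard error 0.29).

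The ratio of Slc22a12 to Slc22a8 counts within a mouse separated the 3 groups. It was 1.79, 2.67 and 2.33 in *db/m*, 0.420, 0.630 and 1.11 in *db/db* and 1.38, 1.16 and 1.22 in treated mice. The ranges did not overlap between any groups. The ratios of Slc22a4 to Slc22a12 and of Slc22a4 to Slc22a30 also separated the 3 groups. Among 28 pairs of members other than Slc22a7, ratios did not overlap for 8 in *db/db* against *db/m* mice. This held for 13 pairs in treated against *db/m* and for 5 in treated against *db/db* mice. The share over pairs of all genes was not computed, and pairs that share a gene are not independent, so these counts are a description. The pair of Slc22a12 and Slc22a8 was picked after its values were seen, so the ratio carries no test.

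Slc22a13 encodes OAT10, a urate and nicotinate carrier, on chromosome 9 from 119192974 to 119209098 (minus strand), inside the annotated span of Slc22a14 on the same strand. Its level varied more between mice than between groups. It was at 34.8, 14.7 and 11.1 CPM in *db/m*, 0.680, 9.60 and 49.5 in *db/db* and 10.8, 12.2 and 17.5 in treated mice. *db/db* replicate 1, at 2.5 deposited counts, was the lowest and *db/db* replicate 3 the highest of the 9 mice. The log2 fold changes of 0.048 (standard error 0.80) in *db/db* against *db/m* and -0.63 (standard error 0.81) in treated against *db/db* mice were smaller than their errors, and both changed sign without *db/db* replicate 3. Slc22a14 itself had at most 3 counts in a mouse. Of the 101-base windows of Slc22a13 transcripts, 21.7% also occur in Slc22a13b-ps, a pseudogene, so that part of its reads could not be assigned uniquely.

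Slc22a18 encodes a transporter with no settled substrate and lies on chromosome 7 from 143473736 to 143499334 (plus strand), in a cluster of imprinted genes, and is itself expressed from the maternal copy. It was at 673, 651 and 798 CPM in *db/m*, 540, 586 and 545 in *db/db* and 632, 531 and 603 in treated mice. Each mouse of the *db/db* groups was below each *db/m* mouse. The differences were modest, with log2 fold changes of -0.34 and -0.27 (standard error 0.16 each, adjusted p = 0.379 and 0.383, edgeR QL test). *db/db* mice varied least here, with a coefficient of variation of 4.50%. Of 10 neighbors in and around this cluster, 9 were tested. In *db/db* against *db/m* mice 0 were called, and in treated against *db/m* mice Osbpl5, an oxysterol-binding protein gene, was called, from 33.5 to 69.1 CPM (log2 fold change 1.04, standard error 0.21, adjusted p = 0.0624, edgeR QL test). This call was lost without any of the 3 *db/m* mice or *db/db*-dapa replicates 2 or 3, at log2 fold changes of 0.97 to 1.14, and with upper quartile scaling, at 0.99. In *db/db* mice Osbpl5 was at 64.7 CPM, a log2 fold change of 0.95 with adjusted p = 0.0718, just short of the fold required. The medians of the 9 neighbors were 0.029, -0.27 and 0.056 in *db/db* against *db/m*, treated against *db/m* and treated against *db/db* mice.

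Slc22a30 belongs to a row of rodent organic anion transporter genes on chromosome 19 with few known substrates. It lies from 8335371 to 8405111 (minus strand), and 186.1 kb separate it from Slc22a8. It was at 207.4, 207.5 and 223 CPM in *db/m*, 85.3, 60.6 and 166 in *db/db* and 157, 141 and 201 in treated mice. All *db/db* and all treated mice were below the *db/m* mice, and *db/db* replicates 1 and 2 were below all others. The difference of -1.02 on the log2 scale (standard error 0.31) in *db/db* against *db/m* mice was large enough for a call, but it had an adjusted p of 0.178 (edgeR QL test). In treated mice it was -0.36 (standard error 0.30) against *db/m* and 0.67 (standard error 0.31) against *db/db* mice. Slc22a30 shares 20.9% of its 101-base windows with other genes, almost all of them with Slc22a28, and its deposited values had fractions in 9 of 9 mice, so the split of reads between these genes is uncertain.

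The promoters of Slc22a28 and Slc22a29, other genes of the row, are set beside that of Slc22a30 because they show how closely these genes are related. The 80 bases that begin 230 before each RefSeq start (GRCm38.p6, minus strand, printed in the direction of transcription) are at chr19:8132133-8132212 for Slc22a28, chr19:8405256-8405335 for Slc22a30 and chr19:8219051-8219130 for Slc22a29. Capitals mark ACTTTG, the opposite strand of CAAAGT, a core of the motif bound by HNF4A.
Slc22a28: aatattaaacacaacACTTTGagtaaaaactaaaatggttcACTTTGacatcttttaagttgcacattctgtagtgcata
Slc22a30: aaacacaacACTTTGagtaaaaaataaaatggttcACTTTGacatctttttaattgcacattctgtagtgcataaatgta
Slc22a29: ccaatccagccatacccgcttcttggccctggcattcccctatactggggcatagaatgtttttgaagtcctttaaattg

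Over the whole promoter window Slc22a28 and Slc22a30 share 93% of bases, while Slc22a29 shares 65.1% with Slc22a28 and 63.6% with Slc22a30. CAAAGT occurs on either strand in 14.4% of the 32851 promoters, at 2 places in Slc22a28 and in Slc22a30, and also 63 bases before the RefSeq start of Slc22a12, whose first bases were likewise not found in GENCODE transcripts. Slc22a28 was at 204 to 222 CPM in *db/m*, 72.6 to 170 in *db/db* and 198 to 248 in treated mice, with *db/db* mice below both other groups. Its log2 fold changes were -0.84 (standard error 0.26, adjusted p = 0.188) in *db/db* against *db/m* and 0.91 (standard error 0.26, adjusted p = 0.854) in treated against *db/db* mice (edgeR QL test). Slc22a29 went the other way and was called. It was at 7.24, 4.19 and 3.55 CPM in *db/m*, 16.7, 14.0 and 12.5 in *db/db* and 17.0, 19.8 and 17.5 in treated mice. All mice of the *db/db* groups were above all *db/m* mice, with log2 fold changes of 1.49 (standard error 0.28, adjusted p = 0.0360) and 1.84 (standard error 0.28, adjusted p = 0.0184; edgeR QL test). Slc22a29 lost its call in *db/db* mice without *db/m* replicate 2, without *db/m* replicate 3 and without *db/db* replicate 2 (adjusted p = 0.131, 0.102 and 0.101) and with only the 6 mice compared (0.131), and in treated mice without *db/db*-dapa replicate 2 (adjusted p = 0.124, edgeR QL test).

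**Figure D2:**
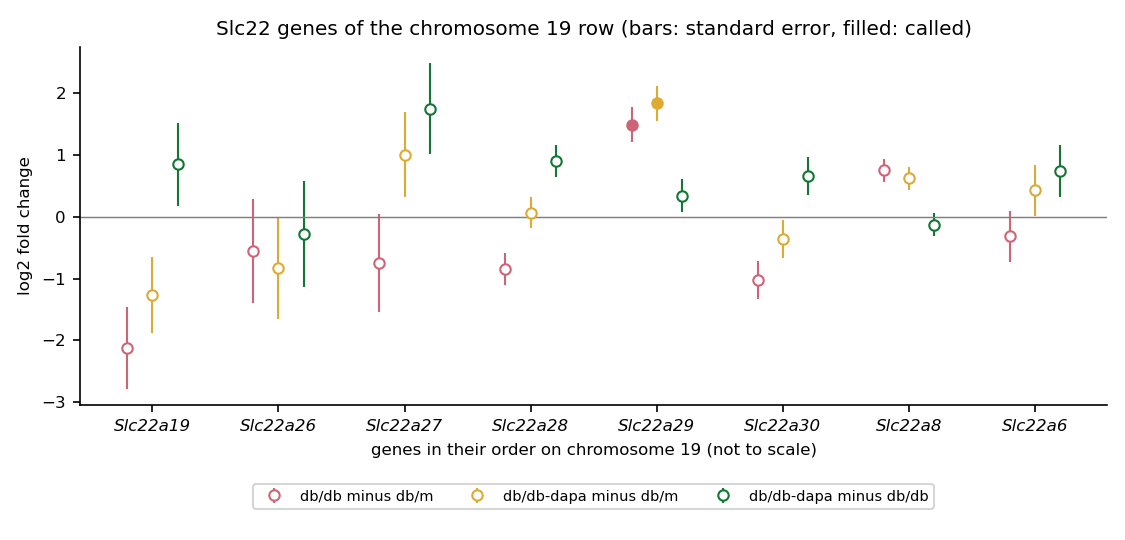
Log2 fold changes (vertical axis) of 8 Slc22 genes in their order along chromosome 19 (horizontal axis, not to scale) in the 3 comparisons. Points are estimates of the edgeR QL test, bars are standard errors and filled points are called genes. Slc22a29 is the filled gene, at 1.49 and 1.84 against *db/m*, between Slc22a28 and Slc22a30, whose values in *db/db* mice are -0.84 and -1.02.

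Slc22a2, Slc22a12 and Slc22a30 were lowest in *db/db* replicates 1 and 2, the mice in which the summed S3 markers were also lowest. In *db/db* replicate 3, with 3098 CPM of S3 markers, these genes were at 312.9, 1119 and 166 CPM, against *db/m* means of 359, 1484 and 213. The sum is of markers that diverged, with Slc7a13 at 7.40 to 100 CPM in *db/db* and 310 to 484 in *db/m* mice. The part of S3 cell content in the levels of Slc22a2, Slc22a12 and Slc22a30 was not tested. Library depth in *db/db* replicates 1, 2 and 3 rose in the same order as the S3 sums, at 2733314, 4951030 and 7635630 counts. Its part was not tested either. Without *db/db* replicate 3, the *db/db* mouse highest in these 3 genes, they were called lower in *db/db* against *db/m* mice. The differences were 1.28, 1.23 and 1.56 on the log2 scale. Leaving this mouse out, chosen after its values were seen, lowers the *db/db* means by construction. The calls without it therefore describe the remaining mice and are no independent support. With Slc22a7, 4 of 9 members were thus called, where 0.992% of all genes were called lower. Without that mouse, Slc22a2, Slc22a6, Slc22a12 and Slc22a30 were also called higher in treated against *db/db* mice, with log2 fold changes of 1.09, 1.42, 1.03 and 1.21, where 1.08% of all genes were called higher. Their adjusted p was 0.0989, 0.0840, 0.0989 and 0.0612 (edgeR QL test). Without *db/db* replicate 1, the values in treated against *db/db* mice were 0.28, 0.34, 0.39 and 0.55, and 0 members and 0% of all genes were called higher. In *db/db* against *db/m* mice, Slc22a2 and Slc22a12 were at -0.47 and -0.60 without *db/db* replicate 1. Slc22a30 was there at -0.75 without *db/db* replicate 2.

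**Figure D3:**
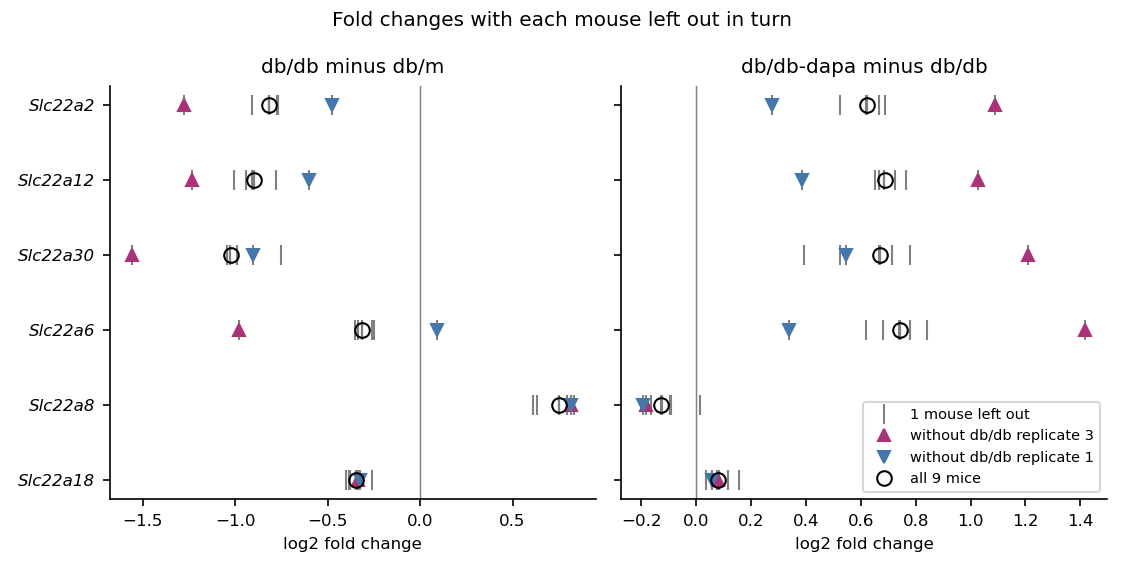
Log2 fold changes (horizontal axes) of 6 members in *db/db* against *db/m* (left) and treated against *db/db* mice (right), with all 9 mice (circles) and with each mouse left out in turn (ticks). Triangles mark the fits without *db/db* replicate 3 (upward) and replicate 1 (downward). Slc22a2 moves from -0.82 to -1.28 without replicate 3 and to -0.47 without replicate 1, whereas Slc22a8 and Slc22a18 keep close to 0.75 and -0.34 on the left.

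**Figure D4:**
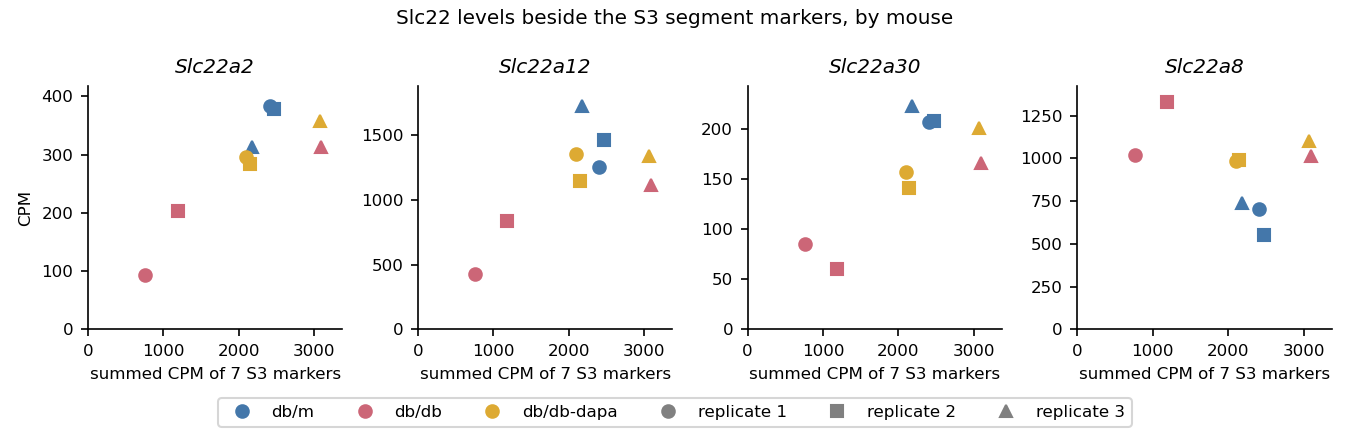
Levels of 4 members in CPM (vertical axes) against the summed CPM of 7 S3 segment markers (horizontal axes) in the 9 mice, colored by group and shaped by replicate. *db/db* replicates 1 and 2 stand at the left, at 762 and 1189 CPM of S3 markers, with the lowest Slc22a2, Slc22a12 and Slc22a30 and with Slc22a8 at 1018 and 1331 CPM. The 7 markers diverged among themselves between groups.

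As a share of the summed level per kilobase of the 9 members, Slc22a12 made up 35.4% ± 3.79 in *db/m*, 24.6% ± 4.14 in *db/db* and 30.8% ± 1.91 in treated mice (SD, n = 3 each). Slc22a8 made up 9.20% ± 1.09, 22.0% ± 6.66 and 14.3% ± 0.58. Slc22a6 held 18.4%, 18.1% and 24.8%, and Slc22a18 held 22.5%, 25.3% and 18.9%. Slc22a7 held 1.43% ± 0.48 in *db/m* mice and 0.010% and 0.011% in the other groups. Ordered by level per kilobase, *db/m* mice had Slc22a12, Slc22a18, Slc22a6, Slc22a8, Slc22a2, Slc22a30, Slc22a7, Slc22a4 and Slc22a13 from highest to lowest. Slc22a6 and Slc22a8 were within 1 SD of Slc22a18 in *db/db* mice, at 272 ± 189, 287 ± 46.6 and 328 ± 14.8 CPM per kb (SD, n = 3 each). In *db/m* mice Slc22a7 and Slc22a4, at 26.1 ± 7.79 and 20.6 ± 1.67 CPM per kb, also lay within 1 SD of each other, as did Slc22a8 and Slc22a2 at 170 ± 26.1 and 144 ± 15.9. Over the 9 mice, on the log2(CPM + 1) scale, Slc22a2 and Slc22a12 correlated at r = 0.937, Slc22a2 and Slc22a6 at r = 0.903, and Slc22a7 and Slc22a8 at r = -0.892, as a description of mice that share groups and libraries.

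**Figure D5:**
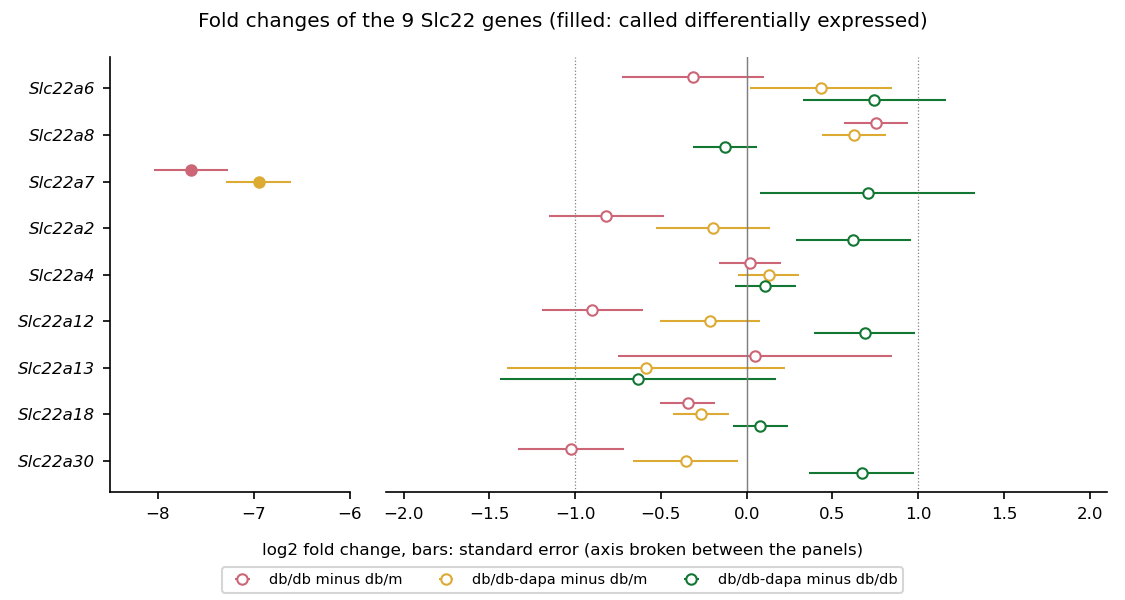
Log2 fold changes (horizontal axis, broken between the panels) of the 9 members in the 3 comparisons. Points are estimates of the edgeR QL test, bars are standard errors, filled points are called genes and dotted lines mark a log2 fold change of 1 in either direction. Slc22a7 is the filled gene, at -7.66 and -6.95 against *db/m* mice, and every other value lies between -1.02 and 0.75.

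Of the 16 other Slc22 genes, 14 were tested and 2, Slc22a16 and Slc22a20, were too low. Slc22a29 was the gene called in both comparisons with *db/m* mice, and 0 were called in treated against *db/db* mice. Their median log2 fold changes were -0.27, 0.058 and 0.26, against members' medians of -0.34, -0.21 and 0.62. Slc22a3, the cation transporter OCT3, had a log2 fold change of 2.03 in *db/db* against *db/m* mice (adjusted p = 0.349, edgeR QL test), from 0.349 to 1.25 CPM. These levels rest on mean counts of 1.67 and 8. Slc22a19 had a log2 fold change of -2.12 there (adjusted p = 0.194, edgeR QL test), from 8.95 to 1.87 CPM. The largest values in treated against *db/db* mice were 1.75 for Slc22a27, with few counts, and 0.91 for Slc22a28. The smallest were -0.86 for Slc22a14 and -0.28 for Slc22a26, both also with few counts.

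The transporters that work with the family were examined as a list of 23 genes, 22 of them tested. In *db/db* against *db/m* mice 1 was called higher and 2 lower, with a median log2 fold change of -0.11. Abcc4, which encodes MRP4, a pump that moves organic anions taken up by OAT1 and OAT3 into the urine, rose from 36.2 to 88.2 CPM (log2 fold change 1.29, standard error 0.25, adjusted p = 0.0412, edgeR QL test). Single mice were at 32.3, 49.4 and 26.9 CPM in *db/m*, 72.1, 78.0 and 115 in *db/db* and 75.5, 91.6 and 91.6 in treated mice, where it was also called against *db/m* (log2 fold change 1.25, adjusted p = 0.0621) but lost the call in 4 of the 9 fits with a mouse left out, without *db/m* replicates 1 or 3 or *db/db*-dapa replicates 2 or 3 (adjusted p = 0.231 to 0.336). Slc17a3, which encodes NPT4, a urinary urate and anion exporter, fell from 734 to 303 CPM in *db/db* mice (log2 fold change -1.27, standard error 0.24, adjusted p = 0.0319). It was at 664, 675 and 861 CPM in *db/m* mice, 232, 267 and 411 in *db/db* mice and 577, 432 and 537 in treated mice, whose values lay between those groups without overlap. Slco1a1, an organic anion transporter of another family, fell from 429, 553 and 369 CPM in *db/m* to 5.10, 3.0 and 8.97 in *db/db* mice (log2 fold change -6.24, standard error 0.76, adjusted p = 0.00461). In *db/db* replicate 3, with 3098 CPM of summed S3 markers, Slco1a1 was at 8.97 CPM and Slc17a3 at 411. The S3 markers diverged, with Slc7a13 at 7.40 to 100 CPM in *db/db* and 310 to 484 in *db/m* mice. The part of S3 cell content in the levels of Slco1a1 and Slc17a3 was not tested. Treated mice had Slco1a1 at 93.0, 14.2 and 144 CPM, above all *db/db* and below all *db/m* mice. Their difference from *db/db* mice, 3.82 on the log2 scale (standard error 0.70), had an unadjusted p of 0.000179 but was not called (adjusted p = 0.854, edgeR QL test). Slco1a1 kept its call in *db/db* mice with each mouse left out in turn. Abcc4 lost its call without *db/m* replicate 1 (adjusted p = 0.206) or replicate 3 (0.144) and with only the 6 mice compared (0.108), and Slc17a3 lost it without *db/m* replicates 1 or 3 or without *db/db* replicate 2 (adjusted p = 0.101, 0.111 and 0.114, edgeR QL test).

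Abcc4 was the partner called in treated against *db/m* mice, and the median of the list was 0.13. Of the 22, 0 were called in treated against *db/db* mice, where the median was 0.36. Slc13a3, which encodes the dicarboxylate carrier NaDC3 that supplies the exchange substrate of OAT1 and OAT3, was at 776, 821 and 1370 CPM in *db/m*, *db/db* and treated mice, with *db/db* mice from 319 to 1277 (coefficient of variation 58.5%). Pdzk1, a scaffold protein that binds URAT1, was at 1692, 1436 and 1655 CPM, and differed by -0.24 on the log2 scale (standard error 0.16) in *db/db* against *db/m* mice, where the groups did not overlap. Urate exit on the blood side runs through GLUT9, and Slc2a9, its gene, was at 11.4, 14.5 and 11.7 CPM in groups that overlapped.

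Among 12 regulators, transcription factors and nuclear receptors linked to the family, 1 was called in each comparison with *db/m* mice and 0 in treated against *db/db* mice. This was Nr1i2, which encodes the drug-sensing receptor PXR, higher in *db/db* mice (log2 fold change 1.21, adjusted p = 0.0656) and in treated mice (1.34, adjusted p = 0.0550; edgeR QL test). Its levels were 6.78, 15.6 and 17.0 CPM in *db/m*, *db/db* and treated mice, and each mouse of the *db/db* groups, at 14.4 CPM or above, was over each *db/m* mouse, at 8.44 or below. The call in *db/db* mice was lost in 6 of the 9 fits with a mouse left out (all but those without *db/db*-dapa replicate 1 or without the *db/m* or *db/db* mouse numbered 3), with a log2 fold change of 0.98 and adjusted p = 0.225 without *db/m* replicate 1, and also with only the 6 mice compared (adjusted p = 0.187, edgeR QL test). In treated mice it was lost without *db/m* replicates 1 or 2 or *db/db*-dapa replicates 2 or 3, with adjusted p up to 0.336. The medians of the 12 genes were 0.42 and 0.70 against *db/m* mice, where all genes had medians of 0.020 and -0.022, and 0.16 in treated against *db/db* mice. Hnf4a was at 827, 889 and 1000 CPM, with log2 fold changes of 0.11 and 0.27 against *db/m* (standard error 0.26 each). Bcl6 had the smallest value in *db/db* against *db/m* mice, -1.09 (adjusted p = 0.426, edgeR QL test), and the largest in treated against *db/db* mice, 0.96 (adjusted p = 0.854).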

How the data were processed

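Poly(A) RNA of sorted tdTomato-positive cells of 9 mice was analysed, 3 per group by the sample labels. The authors prepared stranded libraries, sequenced single-end reads of 101 bases and mapped them to mm10. The submitters' processing notes name TopHat2 2.0.13, Bowtie2 2.2.3, SAMtools 0.1.19 and Cufflinks 2.2.1. The deposited table is named as FPKM, but its values have the form of estimated counts: among those over 0, 85.9% are whole, and library totals differ. How the authors made these estimated counts is not given in the sources used here. No row lacked a gene name and 0 columns of samples were left unused.

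Values were rounded to whole numbers, scaled by TMM and fitted for all 9 mice by group in edgeR 4.0.16 (glmQLFit and glmQLFTest, in their earlier form, R 4.3.3). Genes reaching 0.3 CPM in 2 or more mice were tested, 15583 in all. Calls required a Benjamini-Hochberg adjusted p below 0.1 together with a log2 fold change beyond 1 in either direction, and standard errors were derived from the F value. Mice are the replicates. Ratios of low counts carry exact Poisson intervals. Levels per kilobase used the merged exons of GENCODE M21 on GRCm38, the same build as mm10, and sequences came from RefSeq. The test was also run on simulated data in which all genes had the same spread between mice, which does not cover the wide spread among *db/db* mice.

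The members and all lists were chosen with earlier results of these data known. All 9 members were named, and of each other list the called genes or otherwise the 2 highest and 2 lowest. For each called member, the 3 genes most correlated with it were named. Slc22a5, Slc22a28, Slc47a1, Slc13a3, Pdzk1, Slc2a9 and Hnf4a were named for their place beside a member or their role, after their values were seen. Some genes of these lists are not reported here. Alternatives were DESeq2 1.42.0, limma 3.58.1 on log2(CPM + 1) and log2(CPM + 0.1) or with mouse weights, other scalings and filters, a replicate block, fits of only the 6 mice compared and each mouse left out. Unrounded values were added after seeing the data.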

Additional observations from a re-analysis of the deposited data

How the results depend on the processing

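Slc22a7 was called lower in both comparisons with *db/m* mice under all 21 alternatives, with log2 fold changes from -7.81 to -5.43 in *db/db* and from -7.11 to -5.26 in treated mice. The members called in *db/db* against *db/m* mice rose from 1 to 2 with DESeq2 and with the replicate block (Slc22a7 and Slc22a30 in both), and to 4 with a weight for each mouse in limma (Slc22a2, Slc22a7, Slc22a12 and Slc22a30). With mice left out in turn they ranged from 1 to 4, with 4 without *db/db* replicate 3. In treated against *db/db* mice 1 was called with mouse weights (Slc22a6) and 0 to 4 with mice left out. Of the other Slc22 genes, 2 were called in *db/db* against *db/m* mice with DESeq2 and 2 with mouse weights, 0 with only the 6 mice compared and 0 to 2 with mice left out. In treated against *db/m* mice these numbers were 2, 3, 2 and 0 to 2, and in treated against *db/db* mice 1 was called with mouse weights and 0 to 2 with mice left out. Of the partner transporters, 1 to 3 were called in *db/db* against *db/m* mice with mice left out. In treated against *db/m* mice 3 were called with DESeq2, 2 with limma on log2(CPM + 1), 6 with mouse weights, 3 with no filter, 2 with the replicate block, 5 with only the 6 mice compared and 0 to 5 with mice left out. In treated against *db/db* mice the numbers were 1 with DESeq2, 3 with mouse weights and 0 to 3 with mice left out. Calls over all genes moved as well. DESeq2 called 363 of 15583 genes in *db/db* against *db/m*, 507 in treated against *db/m* and 13 in treated against *db/db* mice. Mouse weights called 262, 1619 and 449, where the main fit called 194, 164 and 0. The replicate block called 185, 167 and 0, and no filter 235, 275 and 0. With only the 6 mice compared these numbers were 114, 626 and 0. With mice left out they were 84 to 230, 14 to 662 and 0 to 272. The cause of these changes was not tested. Where a group was left with 2 mice, the spread came from all mice of the fit.

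Direction changed for members that were never called in the comparison concerned. Slc22a13 in *db/db* against *db/m* mice was -0.023 with DESeq2, -0.97 and -1.31 with limma on log2(CPM + 1) and log2(CPM + 0.1), -1.95 with mouse weights, -0.47 with the replicate block and -1.84 to 0.69 with mice left out. In treated against *db/db* mice it was 0.56, 0.88 and 1.14 in these 3 limma fits and -1.15 to 1.26 with mice left out, and in treated against *db/m* mice -0.87 to 0.066. Slc22a4 in *db/db* against *db/m* mice was -0.0033, -0.0036 and -0.074 in the limma fits and -0.18 to 0.14 with mice left out, and in treated against *db/db* mice -0.013 to 0.31. Slc22a6 in *db/db* against *db/m* mice ranged from -0.98 to 0.089, Slc22a8 in treated against *db/db* mice from -0.19 to 0.014, and Slc22a18 there was -0.0050 with mouse weights. Scaling by the total count moved the median of all genes in *db/db* against *db/m* mice from 0.020 to 0.125. No member changed direction under another scaling. Mice of equal number in different groups had correlations of their deviations from -0.323 to 0.563, and mice of unequal number from -0.61 to 0.359. The highest values were those of *db/db* with *db/db*-dapa replicate 3 (0.563) and replicate 1 (0.402). The main fit did not take the numbers to pair mice. Beyond Slc22a30, the replicate block changed no call of a member. With 1 or 2 counts in each *db/db* mouse, the level of Slc22a7 is a limit of depth, and its fold is known only within its counting interval.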

Other observations

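Within the row on chromosome 19, the ratio of Slc22a30 to Slc22a28 counts was 0.933 to 1.10 in *db/m*, 0.767 to 0.977 in *db/db* and 0.711 to 0.810 in treated mice. Treated mice thus lay below *db/m* mice in 3 of 3, while *db/db* mice overlapped both. Among 28 pairs of members other than Slc22a7, ratios of 13 did not overlap between treated and *db/m* mice, and the share over pairs of all genes was not computed. The ratio of Slc22a30 to Slc22a28 does not depend on library scaling, but these genes share windows of sequence. The part in it of reads common to both was not tested. The deposited values of Slc22a28 and Slc22a29 had fractions in 9 of 9 mice, and those of Slc22a6, Slc22a7, Slc22a8, Slc22a12 and Slc22a18 in 0 of 9.

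The 9 members together took 0.280% of counts in *db/db* replicate 1, the lowest share, and 0.570% in *db/db*-dapa replicate 3, the highest. In *db/m* mice the share was 0.463% to 0.488%. Slc5a8, a monocarboxylate carrier of the partner list, was at 38.4, 199 and 583 CPM in *db/db* mice, with a coefficient of variation of 102% against 69.5% for Slc22a6.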
